A study of Homo sapiens with 54 samples.

Results

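The extracellular matrix genes described here are 39 genes of matrix glycoproteins, laminins and proteoglycans, of 60676 genes listed in the deposited tables. They were chosen by name from what their proteins are, not by a measured value, though with earlier results of these data known. All 39 were found in the table of every library. RNA sequencing measured them in hMSN-like cells, cultures with neurons that resemble the medium spiny neurons of the striatum. They were made from H9 cells (WA09), an established human embryonic stem cell line, and given dopamine or a dopamine receptor agonist. The paper describes the cultures as heterogeneous, with expression of interneuron genes as well. Labels named 54 samples in 18 groups of 4 experiments, and 53 libraries had a table. The 1 mM experiment compared PBS with acute and chronic dosing (groups Acute 1 h, Acute 24 h, Chronic 1 h, Chronic 24 h), where acute cells had a single 1 h dose of 1 mM dopamine at day 45 in vitro, chronic cells had a daily dose for 5 days up to day 50, and the last number is the time from dosing to RNA extraction. The 1 µM experiment had the same 5 groups at 1 µM dopamine. The paper states that dopamine was made up in ascorbic acid, and names PBS as the control of these 2 experiments. Whether that PBS held ascorbic acid was not given in the sources used here. Dopamine and ascorbic acid therefore cannot be told apart in these experiments. The time course compared ascorbic acid vehicle (AA) with 2, 3, 4 and 5 daily doses of 1 mM dopamine (2 Day to 5 Day), all extracted at day 50. Dosed time-course cells were extracted 1 h after the last dose. The agonist experiment compared Water with 50 µM SKF82958, an agonist of D1-type dopamine receptors, and 50 µM quinpirole, an agonist of D2-type receptors. The paper describes acute quinpirole dosing for 1 h at day 45 and does not name SKF82958. Each group had 3 libraries except 5 Day, which had 2 (replicates 2 and 3). All cells had grown on dishes coated with Matrigel, a basement membrane extract rich in laminin, and then with poly-L-ornithine and laminin, so laminin protein was present in every group from outside the cells. The model is 1 cell line, and the culture age of the PBS cells was not given in the sources used here.

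The matrix around cells is built in layers. Laminins are trimers of an alpha, a beta and a gamma chain that form the sheet of a basement membrane, which nidogens and heparan sulfate proteoglycans such as perlecan tie to type IV collagen, while fibronectin, fibrillins and fibulins build the fibres between cells. In brain, where fibrous matrix is sparse, chondroitin sulfate proteoglycans of the lectican family bind hyaluronan and tenascin-R in nets around neurons, and matricellular proteins such as tenascin-C, periostin and osteopontin act on cell adhesion without being a main structural part.

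Upstream sequence is shown for 5 members whose RNA changed in the comparisons below and whose windows hold a short motif of a class of transcription factors. In windows of 250 bases before each gene start, taken from RefSeq on GRCh38.p14 for the 28 members that could be matched (33 starts), 4 motifs were searched on both strands. The AP-1 site TGANTCA was in 3 of the 33 member windows (LAMA3, LAMB3 and POSTN), against 6.57% of 35116 windows of all genes. The cAMP response element TGACGTCA was in 1 of 33 (FN1), against 1.65%. The TEAD site GGAATG was in 3 of 33 (FBN1, LAMA2 and SPARC), against 11.9%. The core of the hypoxia response element, ACGTG, was in 2 of 33 (FBLN2 and FBN2), against 18.5%. With so few windows no share is read as a feature of the members. Capitals below mark the motif, each sequence reads 5′ to 3′ on the gene's strand, and stretches that an annotated exon of the same gene covers were left off. A match describes letters in a window and is not a bound site. The next lines give FN1 (bases 250 to 6 before its start, chr2:215436074-215436318, minus strand), LAMB3 (bases 250 to 21 before one of its starts, chr1:209651395-209651624, minus strand), FBN2 (chr5:128538246-128538495, minus strand), FBN1 (chr15:48644971-48645220, minus strand) and POSTN (bases 250 to 77, chr13:37598845-37599018, minus strand). In FBN2 the capitals are longer than the motif because it lies on both strands and overlaps itself.
FN1: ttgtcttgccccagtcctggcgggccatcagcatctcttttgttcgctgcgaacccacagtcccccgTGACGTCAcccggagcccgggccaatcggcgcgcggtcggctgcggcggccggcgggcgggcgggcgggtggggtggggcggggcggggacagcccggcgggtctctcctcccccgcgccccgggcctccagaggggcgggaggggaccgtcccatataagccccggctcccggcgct
LAMB3: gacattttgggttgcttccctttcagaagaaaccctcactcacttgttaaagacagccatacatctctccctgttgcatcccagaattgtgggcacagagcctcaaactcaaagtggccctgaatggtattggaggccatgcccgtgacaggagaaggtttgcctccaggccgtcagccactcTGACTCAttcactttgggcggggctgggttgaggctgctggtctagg
FBN2: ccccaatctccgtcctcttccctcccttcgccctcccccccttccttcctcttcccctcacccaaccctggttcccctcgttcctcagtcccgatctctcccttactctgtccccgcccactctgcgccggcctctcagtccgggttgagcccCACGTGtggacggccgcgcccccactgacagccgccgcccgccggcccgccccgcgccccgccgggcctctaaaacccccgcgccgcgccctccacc
FBN1: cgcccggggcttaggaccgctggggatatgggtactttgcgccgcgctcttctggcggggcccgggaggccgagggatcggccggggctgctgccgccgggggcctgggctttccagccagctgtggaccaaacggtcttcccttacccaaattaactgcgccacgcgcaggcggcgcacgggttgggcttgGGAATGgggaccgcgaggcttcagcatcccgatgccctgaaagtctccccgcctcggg
POSTN: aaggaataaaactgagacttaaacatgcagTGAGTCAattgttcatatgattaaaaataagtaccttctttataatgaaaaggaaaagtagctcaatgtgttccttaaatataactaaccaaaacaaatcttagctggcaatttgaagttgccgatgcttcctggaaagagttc

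In the tables' own annotation, FN1 (ENSG00000115414) covers chr2:215360440-215436073 with 89 annotated exons and LAMB3 (ENSG00000196878) covers chr1:209614870-209652425 with 30. FBN2 (ENSG00000138829) covers chr5:128257909-128659185, FBN1 (ENSG00000166147) chr15:48408306-48645849 and POSTN (ENSG00000133110) chr13:37562583-37598844, all on the minus strand of hg38. The stretches of LAMB3, FBN2 and FBN1 shown above therefore lie inside the annotated gene, upstream of one of its start sites, and those of FN1 and POSTN lie next to it.

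Library depth ranged from 5755919 to 27702963 exon reads in 52 libraries (median over all 53, 11458465). Quinpirole replicate 1 stood apart, with 137051 exon reads and 96.7% of its reads in introns against 12.3 to 31.2% elsewhere, and it was kept in the fit and named where it matters. Labels were checked with marker genes: all 10 neuron markers and all 12 striatal neuron markers reached a mean of at least 1 TPM. Astrocyte and choroid plexus markers were present too, with sums given below, so RNA of the members cannot be assigned to neurons alone. Genes with GC-rich exons were low relative to GC-poor genes in 4 libraries of the 1 µM experiment (PBS replicate 2, Acute 1 h replicate 2, Acute 24 h replicate 1 and Chronic 1 h replicate 2) and also in 1 mM Acute 24 h replicate 1 and 5 Day replicate 2. Which of the 2 sequencing providers made which library was not given in the sources used here. The study calls the sequenced replicates independent. Whether they came from separate differentiations was not given in the sources used here, and p-values measure the spread between these libraries.

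The most abundant members in the 12 control libraries (PBS of both doses, AA and Water) were matrix components of brain and of basement membrane. TPM, reads scaled by exon length and library size, can be compared between genes. SPARC, a collagen-binding matricellular protein, had a mean of 351 TPM (185 to 489), and TNC, tenascin-C, had 87.7 TPM (30.04 to 136). Of the lecticans, neurocan (NCAN) had 197 TPM (121 to 227) and versican (VCAN) 142 TPM (92.1 to 186). Agrin (AGRN), a heparan sulfate proteoglycan of synapses and basement membranes, had 137 TPM (45.7 to 187), far above perlecan (HSPG2) at 18.3 TPM (9.72 to 26.1). LAMB1 at 92.5 TPM (61.1 to 165) and LAMC1 at 80.4 TPM (65.4 to 88.3) led the laminins, and the means of these beta and gamma chains lay above that of every alpha chain. Fibulin-1 (FBLN1) had 87.9 TPM (56.1 to 133) and fibulin-2 (FBLN2) 47.1 TPM (9.46 to 115), and the 2 ranges overlapped. The small leucine-rich proteoglycans, typical of connective tissue, were low, with lumican (LUM) at 6.25 TPM (1.96 to 13.7) and decorin (DCN) at 6.09 TPM (0.822 to 14.5). The ranges of NCAN, VCAN and AGRN overlapped, so their order is not beyond the spread. By mean control level 4 members had at least 100 TPM, 19 had 10 to 100, 12 had 1 to 10, and 4 (ACAN, OGN, ASPN and LAMC3) had under 1.

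Levels of several members differed between the control cultures of the 4 experiments. Tenascin-C had 30.04 to 43.0 TPM in PBS of the 1 µM experiment and 87.9 to 136 in the other controls, with no overlap. Decorin had 0.822 to 1.44 TPM in the same PBS libraries and 4.69 to 14.5 in the other controls. Matrix Gla protein (MGP), an inhibitor of calcification, was listed at 0 in all 3 of them. Osteopontin (SPP1) had 56.7 to 69.3 TPM there, 51.9 to 56.6 in Water, 22.1 to 29.8 in PBS of the 1 mM experiment and 12.9 to 16.7 in AA, so the 1 µM PBS libraries lay next to those of Water. Such levels are set side by side as a description, and every test below compares groups of a single experiment, apart from that of the 2 doses.

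**Figure D1:**
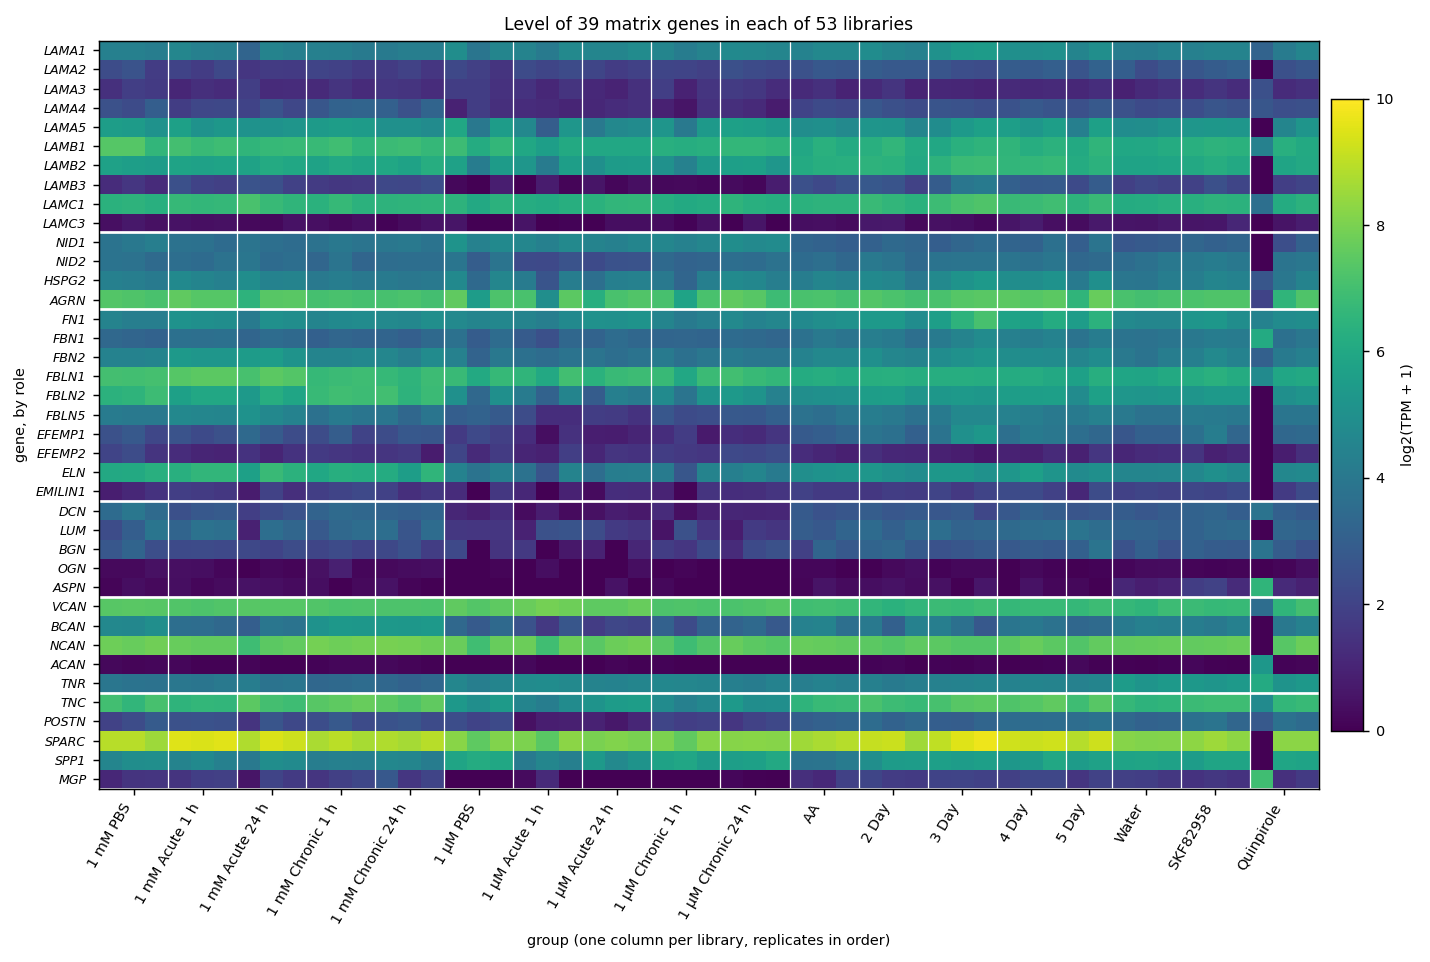
Level of each of the 39 members (rows, ordered by role) in each of the 53 libraries (columns, ordered by group), as log2(TPM + 1) in colour. NCAN, SPARC, VCAN and AGRN are bright across the libraries while ACAN, OGN, ASPN and LAMC3 are dark, and quinpirole replicate 1, with 137051 exon reads, differs from its group.

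After a single 1 mM dose FBN2, SPARC and LAMB3 were among the members higher at 1 h, and brevican and decorin were lower. FBN2, the fibrillin of developing tissues, rose from 20.7, 20.6 and 21.96 TPM in PBS to 40.3, 36.8 and 37.0 TPM in Acute 1 h. The log2 fold change was 0.91 ± 0.13 (SE, adjusted p = 0.000977), and the groups were far apart. SPARC rose from 489, 479 and 373 to 719, 682 and 754 TPM, a change on the log2 scale of 0.75 ± 0.17 (SE, adjusted p = 0.0123). The lowest treated library was above the highest PBS library. LAMB3, a beta chain found in epithelial basement membranes, rose from 1.42, 1.99 and 1.34 to 4.42, 2.99 and 2.73 TPM, or 1.16 ± 0.25 (SE, adjusted p = 0.00897). The groups did not overlap. No overlap was a condition for giving called members in full, so it adds no support to a call.

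Brevican (BCAN), a lectican made mainly in brain, fell from 24.4, 24.1 and 29.5 TPM in PBS to 11.2, 11.03 and 9.41 TPM in Acute 1 h, a change on the log2 scale of −1.24 ± 0.23 (SE, adjusted p = 0.00367). Every treated library had under 12 TPM and every PBS library over 24. Decorin, which binds collagen fibrils and growth factors, fell from 10.4, 14.5 and 9.88 to 4.47, 5.73 and 6.25 TPM, or −1.02 ± 0.22 (SE, adjusted p = 0.00884). EFEMP2 (fibulin-4, needed for elastic fibre assembly) fell from 3.12, 3.96 and 1.80 to 1.41, 1.06 and 0.992 TPM, or −1.28 ± 0.39 (SE, adjusted p = 0.0375). Few reads stood behind EFEMP2, 39 to 88 in PBS and 19 to 30 in Acute 1 h, and its call was lost in 6 of 13 alternatives, up to an adjusted p of 0.15.

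In that comparison 9 of 36 members tested were higher and 3 lower by edgeR's quasi-likelihood test with Benjamini-Hochberg adjustment over all genes (adjusted p under 0.05, here written as called), where 16% of all 17804 genes tested passed in either direction (8.04% higher and 7.94% lower). The median log2 fold change of the members was 0.08 against 0.01 for all genes. By role, 5 of 10 fibronectin, fibrillin and elastic fibre genes were higher (FN1, FBN1, FBN2, FBLN1 and FBLN5) and EFEMP2 lower, with a median of 0.50. Of 10 laminin chains LAMC1 and LAMB3 were higher and none lower, with a median of −0.02. SPARC was the 1 of 5 matricellular genes called, with a median of 0.11, and HSPG2 the 1 of 4 basement membrane linkers, with a median of 0.14. Fibronectin (FN1), the adhesive glycoprotein that integrins bind, went from 21.4, 18.5 and 18.5 to 32.9, 30.4 and 29.2 TPM, with no overlap and a change on the log2 scale of 0.73 ± 0.22 (SE, adjusted p = 0.035). Its call and those of FBLN5 and LAMC1 were lost when any 1 of the 6 libraries was left out. Of 13 alternatives, LAMC1 was lost in 9, HSPG2 in 6, and FBN1 and FBLN1 in 5 each. Leaving out any 1 of these 6 libraries left 5 or 6 members called, and fitting only the PBS and Acute 1 h libraries gave 22, where 45.5% of all genes passed. Counting all gene reads, introns included, gave 13 higher and 8 lower, where 47.2% of all genes passed.

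Partners of the members were followed in lists of genes that bind, crosslink or receive the matrix. Of 6 basement membrane collagen genes COL18A1 and COL4A6 were higher at 1 mM Acute 1 h (log2 fold changes of 0.81 and 0.64) and none lower. Of 15 integrin subunits ITGA5, the fibronectin receptor alpha chain, was higher at 0.61 and ITGB8 lower at −0.29. Of 12 other matrix receptors SDC2 (0.82) and DAG1 (0.33) were higher and PTPRZ1 (−0.49) lower, and of 9 crosslinkers and elastic fibre partners LTBP1 (0.34) and MFAP4 (0.35) were higher. HAPLN2, a link protein that fastens lecticans to hyaluronan in brain, was the 1 of 7 hyaluronan genes called, at −1.67. In this comparison 16% of all genes passed in either direction, so such counts are not read as features of these lists.

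Other values moved with the 1 mM Acute 1 h group. Intron reads made up 12.3 to 13.2% of reads there against 19.5 to 21.8% in PBS. The summed level of 8 endothelial and mural cell markers was 242 to 316 TPM against 104 to 115 TPM in PBS, and ACTA2, smooth muscle actin, and RGS5, a pericyte marker, were the 2 of 6 tested that rose, by 3.05 and 1.83 on the log2 scale. The defining endothelial markers PECAM1 and CDH5 had at most 0.3 TPM in the 52 libraries other than quinpirole replicate 1. The sum of 12 fibroblast and mesenchyme markers, 148 to 152 TPM, lay within the PBS range of 119 to 156, but FOXC1 and PRRX1 were the 2 of 9 tested that rose, by 2.24 and 1.44 on the log2 scale. Of 10 neuron markers SYT1 (−0.43) and RBFOX3 (−0.40) were lower. The sum of 7 astrocyte markers was 431 to 490 TPM against 286 to 326 in PBS, with GJA1 higher and SLC1A3 and SLC1A2 lower by the test. That of 5 choroid plexus markers was 381 to 1288 against 561 to 2839, with overlap, and AQP1 was called lower (−2.40). Among striatal neuron markers GAD2 (0.66) was higher and ARPP21 (−0.64) lower, and the neural progenitor marker HES5 (−0.99) was lower. In bulk RNA, fewer cells of a type and less RNA per cell cannot be told apart. The part of these values in the members' changes was not tested.

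**Figure D2:**
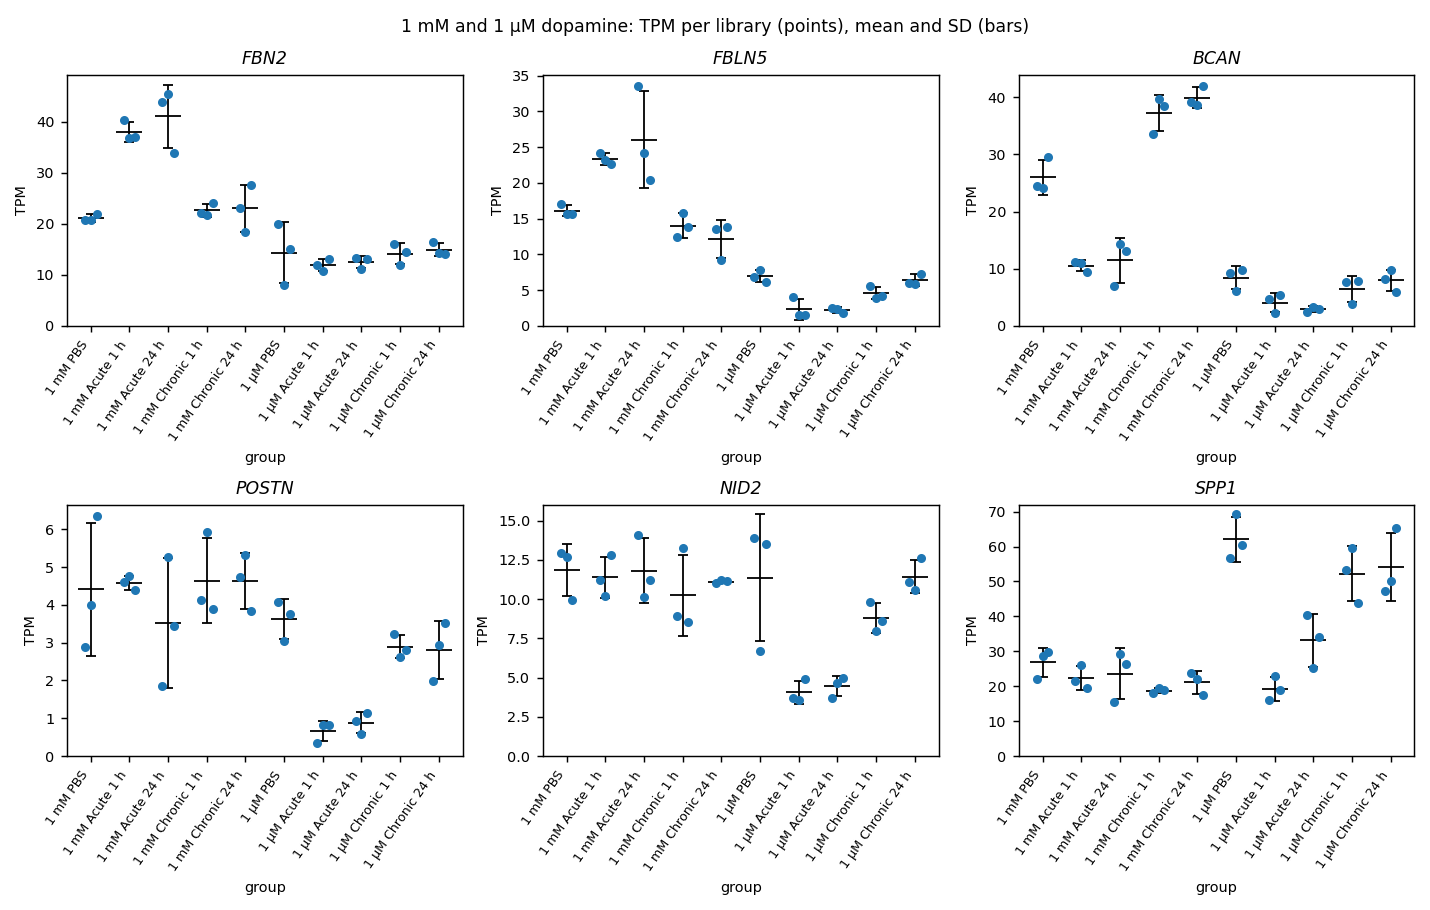
TPM of FBN2, FBLN5, BCAN, POSTN, NID2 and SPP1 in each library (points) with group means (bars) for PBS and the acute and chronic groups at 1 mM and 1 µM. At 1 mM the 6 acute libraries of FBN2 (33.9 to 45.4 TPM) sit above the PBS and chronic libraries, while at 1 µM the 6 acute libraries of POSTN (0.349 to 1.13 TPM) sit below them.

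At 24 h after the same dose FBN2 and LAMB3 were again higher than in PBS, and BCAN and decorin again lower. FBN2 had 43.8, 45.4 and 33.9 TPM (log2 fold change 0.84 ± 0.13, adjusted p = 0.00292) and LAMB3 had 4.83, 4.50 and 2.82 TPM (1.22 ± 0.25, adjusted p = 0.0108). Both stayed above every PBS library. Decorin was at 2.65, 3.91 and 4.83 TPM (−1.70 ± 0.23, adjusted p = 0.00126) and BCAN at 6.97, 14.3 and 13.1 TPM (−1.26 ± 0.23, adjusted p = 0.00573), both below every PBS library. A proteoglycan of connective tissue and a laminin chain were lower too. Biglycan (BGN), a relative of decorin, went from 5.59, 8.39 and 4.36 to 3.49, 2.99 and 4.05 TPM (−0.91 ± 0.28, adjusted p = 0.045), and LAMA2, the alpha chain of muscle laminin, from 4.04, 4.83 and 2.38 to 1.97, 2.37 and 2.28 TPM (−0.87 ± 0.26, adjusted p = 0.0409). The LAMA2 groups came close, at 2.37 against 2.38 TPM, and the BGN call was lost in 8 of 12 alternatives. The lowest BCAN value was that of Acute 24 h replicate 1, where genes with GC-poor exons stood a median of 0.43 above their mean over the experiment (log2(TPM + 1) scale) and GC-rich genes 0.04 above.

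At 24 h, 3 of 36 members were higher and 7 lower, where 15.5% of all genes passed in either direction (8.38% higher and 7.09% lower). The members' median log2 fold change was −0.15 against 0.02 for all genes. Laminin chains had a median of −0.41, with LAMB3 higher and LAMA2 and LAMB1 lower, and BGN and DCN were the small leucine-rich proteoglycans called, with a median of −0.91. LAMB1 groups overlapped, since PBS replicate 3 had 94.4 TPM against 163 and 165 in the others. PBS replicate 3 also had a summed level of choroid plexus markers of 561 TPM against 2165 and 2839 in the other 2 PBS libraries. Other values moved with Acute 24 h. Intron reads made up 12.5 to 15.9% of reads against 19.5 to 21.8% in PBS, and the endothelial and mural sum was 172 to 243 TPM against 104 to 115, with ACTA2 (2.10 on the log2 scale) and RGS5 (1.42) higher. The fibroblast and mesenchyme markers PRRX1 (1.30) and FOXC1 (0.95) were higher, while their sum, 116 to 179 TPM, overlapped PBS. The neuron marker sum was 2701 to 4997 TPM against 5127 to 5917, with STMN2 (−0.68), SYT1 (−0.42), RBFOX3 (−0.49) and ELAVL3 (−0.48) the 4 of 10 lower. Of 7 astrocyte markers SLC1A2 (−0.59) and AQP4 (−1.05) were lower. The choroid plexus markers AQP1 (−2.75), TTR (−2.04) and FOLR1 (−0.98) were called lower. Among striatal neuron markers PPP1R1B (−0.91) was lower and GAD2 (0.75) higher. The part of these values in the members' changes was not tested. No member was called when only the PBS and Acute 24 h libraries were fitted. The count was 17 (10 higher and 7 lower) with intron reads included, where 43.8% of all genes passed, 4 without PBS replicate 2, 6 without PBS replicate 1 and up to 13 when other single libraries were left out.

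After 5 daily 1 mM doses few members differed from PBS. At Chronic 1 h, 1 member was higher and 1 lower, where 2.08% of all genes passed (1.27% higher and 0.814% lower), and the members' median log2 fold change was −0.08 against 0.00 for all genes. Tenascin-C went from 124, 94.9 and 136 to 169, 184 and 204 TPM (0.61 ± 0.14, adjusted p = 0.04). Tenascin-R (TNR), which joins lecticans into perineuronal nets, fell from 14.2, 13.1 and 12.5 to 9.05, 9.57 and 10.5 TPM (−0.49 ± 0.10, adjusted p = 0.0208). Neither pair of groups overlapped, but 0 members were called without PBS replicate 1, PBS replicate 2 or any 1 of the Chronic 1 h libraries. At Chronic 24 h TNR was lower and no other member was called, where 0.663% of all genes passed (0.118% higher and 0.545% lower). It had 9.00, 7.85 and 9.15 TPM (−0.65 ± 0.10, adjusted p = 0.0177), below every PBS library, and 0 members were called without PBS replicate 1 or 2 or without Chronic 24 h replicate 1 or 3. LAMB3 had 3.52, 3.37 and 4.12 TPM there, above every PBS library, with an adjusted p of 0.0536. BCAN had means of 37.3 TPM at Chronic 1 h and 39.9 TPM at Chronic 24 h against 26.0 in PBS, and was not called. Without Acute 24 h replicate 1 in the fit, the counts were 11 at Chronic 1 h and 10 at Chronic 24 h, where 18.4% and 8.48% of all genes passed. Markers that moved with Chronic 1 h included GFAP (1.61 on the log2 scale), FOXC1 (1.94) and ACTA2 (1.00), all higher. Each was the only gene called in its list, of astrocyte, fibroblast and mesenchyme, and endothelial and mural markers in that order. The striatal neuron markers PPP1R1B (−0.93) and FOXP2 (−0.67) and the neural progenitor marker HES5 (−1.50) were lower. The part of these markers was not tested.

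Chronic 1 h and Acute 1 h cultures at 1 mM were set against each other to ask how repeated dosing changes the response. Culture age (day 50 against day 45) and number of doses cannot be told apart in this comparison. BCAN was higher after chronic dosing, at 33.6, 39.7 and 38.5 TPM against 11.2, 11.03 and 9.41 TPM, a change on the log2 scale of 1.72 ± 0.23 (SE, adjusted p = 0.000622). These Chronic 1 h values also lay above every PBS library (PBS mean 26.0 TPM), though BCAN was not called against PBS. TNC was higher too, at 169, 184 and 204 against 89.4, 98.0 and 93.8 TPM (0.88 ± 0.14, adjusted p = 0.00149). Fibre proteins went the other way. FBN2 had 22.02, 21.8 and 24.0 TPM against 40.3, 36.8 and 37.0 (−0.86 ± 0.13, adjusted p = 0.00131), and FBLN5 (fibulin-5, which seeds elastic fibres on microfibrils) had 12.4, 15.8 and 13.8 TPM against 24.2, 23.3 and 22.6 (−0.84 ± 0.16, adjusted p = 0.00483). None of these 4 pairs of groups overlapped, as the choice of members shown required. The 4 calls held in each of the 13 alternatives run. Fibulin-2 had 107, 122 and 116 against 50.5, 63.0 and 63.1 TPM (0.86 ± 0.22, adjusted p = 0.0225), and LAMA4, the alpha chain of vessel-wall laminins, 5.45, 7.89 and 8.29 against 2.50, 3.35 and 3.53 TPM (1.10 ± 0.30, adjusted p = 0.0302). Both of these were lost when most single libraries were left out.

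In all, 4 of 36 members were higher and 7 lower in Chronic 1 h than in Acute 1 h, where 11.3% of all genes passed in either direction (5.37% higher and 5.91% lower). Lower members were HSPG2, FBN1, FBN2, FBLN1, FBLN5, TNR and SPARC, and the median log2 fold change over the members was −0.25. Of the elastic fibre group, 4 of 10 were lower and FBLN2 higher, with a median of −0.44. Acute 1 h libraries are in this comparison and in that of Acute 1 h with PBS, so the 2 share their spread and are not independent. Intron share also differed, at 20.6 to 20.9% in Chronic 1 h against 12.3 to 13.2% in Acute 1 h, and the endothelial and mural marker sum was 111 to 136 against 242 to 316 TPM. Of 7 astrocyte markers GFAP (2.36 on the log2 scale), SLC1A3 (0.86) and SLC1A2 (0.56) were higher in Chronic 1 h and GJA1 (−1.19) lower, with a sum of 374 to 396 against 431 to 490 TPM. PRRX1 (−1.40) was the 1 of 9 fibroblast and mesenchyme markers called. Their part was not tested. The count was 21 with intron reads included, 23 with only the groups compared and 17 without Acute 24 h replicate 1 in the fit, where 40.1%, 44% and 34% of all genes passed.

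**Figure D3:**
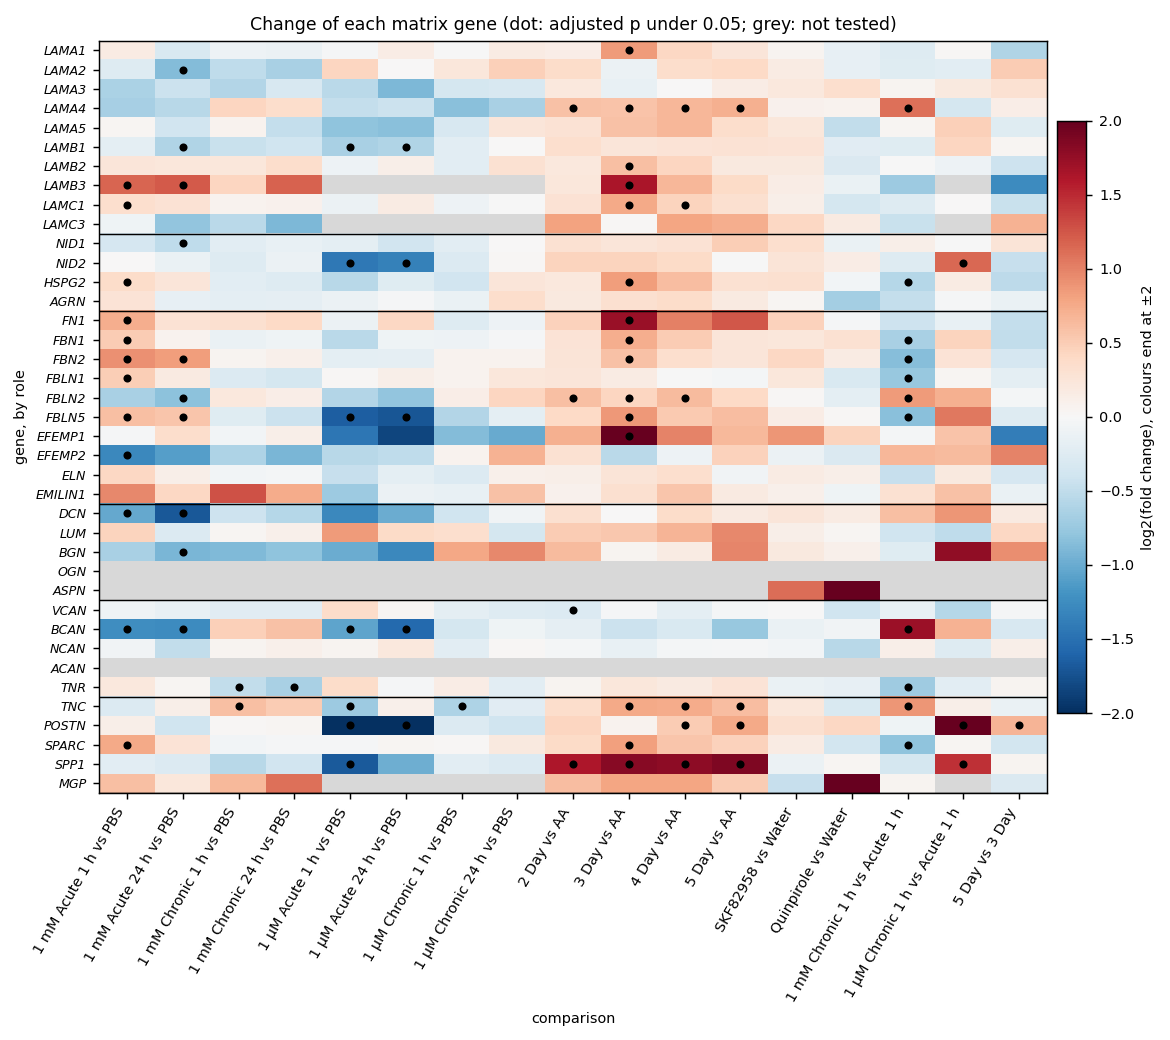
Log2 fold change of each member (rows, ordered by role) in each of 17 comparisons (columns) as colour, red higher and blue lower, ending at 2 in either direction; dots mark an adjusted p under 0.05 and grey marks members not tested. 3 Day has 15 dots, all red, 1 µM Acute 1 h has 7, all blue, and the agonist columns have none.

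After a single 1 µM dose 7 members were lower at 1 h, 3 of them matricellular (POSTN, SPP1 and TNC), and none was higher. Periostin (POSTN), a matricellular protein that binds collagen and tenascin, fell from 4.08, 3.05 and 3.76 TPM in PBS to 0.349, 0.810 and 0.831 TPM in Acute 1 h, a change on the log2 scale of −2.36 ± 0.43 (SE, adjusted p = 0.00465). Behind these values stood 50 to 60 reads per PBS library and 3 to 11 per treated library, so the fold is imprecise although the groups were well apart. Osteopontin, a secreted integrin ligand, fell from 56.7, 69.3 and 60.4 to 16.2, 22.9 and 18.8 TPM (−1.68 ± 0.32, adjusted p = 0.0066), so every treated library lay far below the lowest PBS library. Nidogen-2 (NID2), which bridges laminin and type IV collagen, fell from 13.9, 6.72 and 13.5 to 3.68, 3.59 and 4.90 TPM (−1.42 ± 0.20, adjusted p = 0.000736). Tenascin-C fell from 39.3, 30.04 and 43.0 to 21.6, 17.9 and 27.5 TPM (−0.73 ± 0.14, adjusted p = 0.0062), which placed the highest treated library close under the lowest PBS library. FBLN5 went from 6.88, 7.76 and 6.07 to 3.97, 1.46 and 1.46 TPM (−1.65 ± 0.39, adjusted p = 0.0215) and BCAN from 9.29, 6.08 and 9.81 to 4.68, 2.20 and 5.34 TPM (−1.05 ± 0.27, adjusted p = 0.0366). These last calls were the less stable ones, lost in 6 and 8 of 13 alternatives.

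Of 33 members tested at 1 µM Acute 1 h, 0 were higher and 7 lower, where 5.77% of all 16541 genes tested passed in either direction (3.25% higher and 2.52% lower). The median log2 fold change of the members was −0.54 against 0.02 for all genes, and 6 of the 33 were positive. Matricellular genes had a median of −1.20 over 4 tested, with 3 lower, and the fifth, MGP, was not tested here. NID2 was the 1 of 4 basement membrane linkers called and LAMB1 the 1 of 8 laminin chains tested. In the partner lists ITGB5 was the 1 of 13 integrin subunits called and LTBP1 and LOX the 2 of 8 crosslinkers and elastic fibre partners, all 3 lower, and no gene of the lists of basement membrane collagens, hyaluronan genes or other matrix receptors was called. LAMB1, the seventh member called, fell from 113, 70.8 and 96.2 to 60.7, 47.9 and 67.3 TPM (−0.65 ± 0.12, adjusted p = 0.0055). At 24 h after the dose 0 members were higher and 5 lower, where 3.31% of all genes passed (1.4% higher and 1.91% lower), and the members' median was −0.20. POSTN then had 0.923, 0.583 and 1.13 TPM (−2.09 ± 0.41, adjusted p = 0.0138), NID2 3.73, 4.69 and 4.94 TPM (−1.36 ± 0.20, adjusted p = 0.00197) and BCAN 2.41, 3.34 and 2.99 TPM (−1.55 ± 0.28, adjusted p = 0.00813). FBLN5 was at 2.49, 2.37 and 1.78 TPM (−1.72 ± 0.38, adjusted p = 0.0253) and LAMB1 at 62.5, 63.0 and 62.3 TPM (−0.60 ± 0.12, adjusted p = 0.0149). In each of these 5 the highest Acute 24 h library was below the lowest PBS library. The FBLN5 and LAMB1 calls were lost in 6 and 5 of 13 alternatives. SPP1 had 40.3, 25.3 and 34.0 TPM, also below PBS, with an adjusted p of 0.11. The count fell to 2 without Acute 24 h replicate 2 and to 1 without replicate 3.

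After 5 daily 1 µM doses 1 member was called at Chronic 1 h and none at Chronic 24 h. TNC, at 27.4, 19.6 and 23.6 TPM, was lower at Chronic 1 h (−0.62 ± 0.14, adjusted p = 0.0277) and the other 32 members tested were not called, where 2.58% of all genes passed (1.75% higher and 0.834% lower). Its call was lost when any 1 of the 6 libraries was left out. At Chronic 24 h 0 members and 0% of genes passed by edgeR's quasi-likelihood test, no member had an unadjusted p under 0.05 against 3.68% of all genes, and DESeq2 called 0 members. Set against Acute 1 h, Chronic 1 h had 3 members higher and 0 lower, where 1.2% of all genes passed (0.556% higher and 0.647% lower). POSTN had 3.24, 2.63 and 2.81 TPM (2.09 ± 0.43, adjusted p = 0.0296), SPP1 53.3, 59.5 and 43.9 TPM (1.46 ± 0.32, adjusted p = 0.0405) and NID2 9.81, 7.97 and 8.60 TPM (1.15 ± 0.20, adjusted p = 0.0114). The 3 genes did not overlap between the groups, and culture age and number of doses again cannot be told apart. The count was 0 without Chronic 1 h replicate 1, and 1 without Chronic 1 h replicate 2 or 3 or without Acute 1 h replicate 1 or 3.

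Fits on only the groups compared called 0 members at 1 µM Acute 1 h and 2 at Acute 24 h. POSTN, SPP1 and NID2 at Acute 1 h then had adjusted p of 0.157, 0.0944 and 0.0989. Members with GC-rich exons varied with the library at this dose. In the 4 libraries where GC-rich genes were low, AGRN (67.9% GC) had 45.7, 29.8, 76.1 and 54.8 TPM, below every other 1 µM library, while POSTN (38.8% GC) was the lowest of its group in PBS and Chronic 1 h and between the other libraries in Acute 1 h and Acute 24 h. BCAN (62.1% GC) is among the 10 members of at least 60% GC, and its lowest Acute 1 h value, 2.20 TPM in replicate 2, came from such a library. Without these 4 libraries, an alternative chosen after the data were seen, 11 members were lower at Acute 1 h, and 1 was higher and 10 lower at Acute 24 h, where 14% and 10.2% of all genes passed. POSTN, SPP1, NID2, TNC, BCAN and LAMB1 stayed lower at Acute 1 h, whereas FBLN5 had an adjusted p of 0.0567. Markers of choroid plexus moved with the dose as well, with a sum of 1139 to 1516 TPM at Acute 1 h and 1553 to 2049 at Acute 24 h against 2099 to 2660 in PBS, and 4 of 4 tested were lower at Acute 1 h. COL1A1 (−1.02 on the log2 scale) was the 1 of 8 fibroblast and mesenchyme markers called there, also lower, with a sum of 48.0 to 97.8 TPM against 63.5 to 124. Of 9 neural progenitor markers HES1 (1.57), HES5 (1.67) and NES (0.66) were higher and VIM (−1.01) lower. Their part in the members' changes was not tested.

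**Figure D4:**
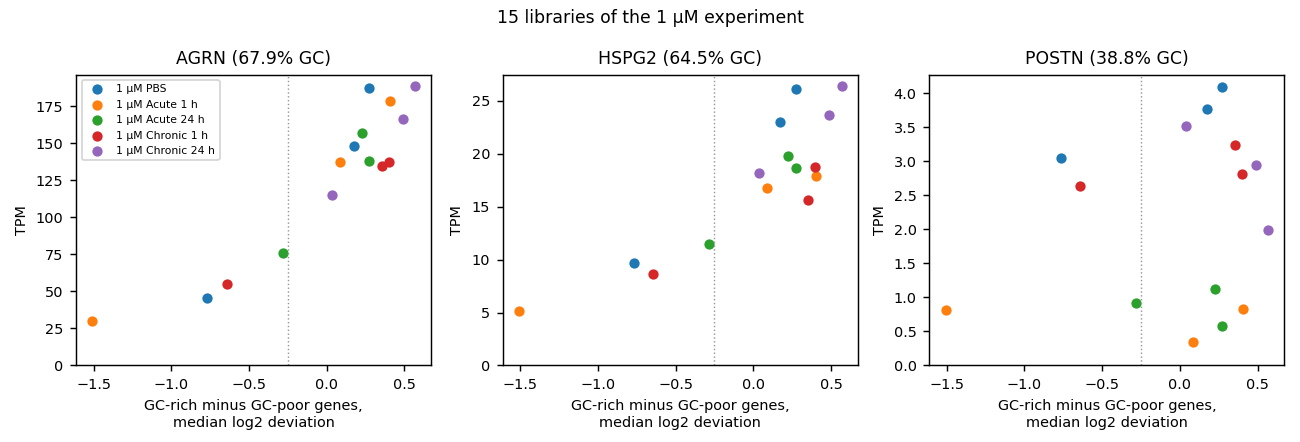
TPM of AGRN, HSPG2 and POSTN (vertical axis) against the median log2 deviation of GC-rich minus GC-poor genes (horizontal axis) in the 15 libraries of the 1 µM experiment, with a dotted line at −0.25. In the 4 libraries left of the line AGRN has 29.8 to 76.1 TPM and in the other 11 it is higher, while POSTN spreads on both sides.

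The responses to a single dose were compared between 1 mM and 1 µM at 1 h by an interaction term over all 30 libraries of both experiments, each dose against its own PBS. The change at 1 mM was higher for 5 of 36 members and lower for 0, where 2.01% of all 18390 genes tested passed (1.09% higher and 0.919% lower). The members' median difference was 0.45 on the log2 scale against −0.01 for all genes. FBLN5 differed by 2.29 ± 0.39 (SE, adjusted p = 0.00145), POSTN by 2.49 ± 0.55 (SE, adjusted p = 0.0178) and NID2 by 1.46 ± 0.26 (SE, adjusted p = 0.00221). FBLN5 was called higher at 1 mM and lower at 1 µM, although the 1 mM call was lost without any 1 of its 6 libraries, while POSTN and NID2 fell at 1 µM and had log2 fold changes of 0.11 (adjusted p = 0.867) and 0.01 (adjusted p = 0.972) at 1 mM. The fibrillins FBN2 and FBN1 differed by 1.13 ± 0.23 (SE, adjusted p = 0.0092) and 1.07 ± 0.24 (SE, adjusted p = 0.0205), both having risen at 1 mM and having log2 fold changes of −0.19 (adjusted p = 0.625) and −0.54 (adjusted p = 0.108) at 1 µM. BCAN, lower after 1 h at both doses, had a difference of −0.17 ± 0.36 (SE, adjusted p = 0.893). That standard error exceeds the difference, so falls that differ by such an amount were not detectable. The doses were run as separate experiments, so dose and experiment cannot be told apart. The count was 3 without PBS replicate 2 of the 1 mM experiment and 18 (13 higher and 5 lower) with intron reads included, where 27.9% of all genes passed.

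Repeated 1 mM dosing in the time course raised members at every day, with most calls at 3 Day. Osteopontin was higher at each time, from 12.9, 13.3 and 16.7 TPM in AA to 29.3, 44.4 and 44.9 at 2 Day, 48.4, 45.03 and 48.6 at 3 Day, 38.3, 42.9 and 63.6 at 4 Day and 44.3 and 51.5 at 5 Day. Its log2 fold changes were 1.61 ± 0.21 (SE, adjusted p = 0.000573), 1.82 ± 0.20 (SE, adjusted p = 0.00011), 1.79 ± 0.21 (SE, adjusted p = 0.000226) and 1.87 ± 0.22 (SE, adjusted p = 0.000479) in that order. Every treated library was above the highest AA library, and the calls held in each alternative run. The 4 comparisons share the same AA libraries. AA had the lowest osteopontin of the control groups, at a mean of 14.3 TPM against 26.9 in PBS of the 1 mM experiment. After 5 daily 1 mM doses in that experiment (Chronic 1 h) osteopontin had a mean of 18.8 TPM and was not called. Of the 4 members called at 5 Day, tenascin-C was also called higher there, and SPP1, POSTN and LAMA4 were not called. LAMA4 was also called at each day, from 3.02, 3.73 and 3.38 TPM in AA to 5.49, 4.46 and 3.93 at 2 Day, 5.13, 4.69 and 4.29 at 3 Day, 4.79, 5.97 and 5.04 at 4 Day and 4.36 and 5.85 at 5 Day, with no overlap with AA. Its log2 fold changes were 0.58 ± 0.13 (SE, adjusted p = 0.0272), 0.58 ± 0.13 (SE, adjusted p = 0.0166), 0.67 ± 0.13 (SE, adjusted p = 0.0114) and 0.72 ± 0.15 (SE, adjusted p = 0.0238), and leaving out single libraries lost the call at every day.

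At 2 Day, 3 of 36 members were higher and 1 lower, where 3.88% of all 16768 genes tested passed (1.89% higher and 1.99% lower), and 33 of 36 had a positive log2 fold change, with a median of 0.30 against 0.02 for all genes. Fibulin-2, which joins fibrillin and basement membranes, went from 30.03, 31.3 and 32.6 to 47.0, 47.1 and 36.2 TPM (0.61 ± 0.12, adjusted p = 0.012). Versican, the lectican of loose tissue and developing brain, went from 122, 124 and 118 to 95.8, 82.9 and 94.8 TPM (−0.28 ± 0.07, adjusted p = 0.0369) and was the member that was lower. Both pairs of groups were apart, although the versican call was lost without any 1 of the 6 libraries. The count was 2 without 2 Day replicate 1 or AA replicate 3 and 1 without 2 Day replicate 2, AA replicate 1 or AA replicate 2.

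At 3 Day, 15 of 36 members were higher and 0 lower, where 7.37% of all genes passed (4.77% higher and 2.6% lower). The median log2 fold change of the members was 0.44 against 0.00 for all genes. EFEMP1 (fibulin-3), an elastic fibre and basement membrane protein, rose from 6.17, 6.87 and 8.63 TPM in AA to 12.8, 31.3 and 38.11 TPM, a change on the log2 scale of 2.02 ± 0.33 (SE, adjusted p = 0.00236). Fibronectin rose from 26.0, 29.5 and 32.8 to 47.1, 87.5 and 137 TPM (1.72 ± 0.28, adjusted p = 0.00242), and LAMB3 from 4.43, 3.65 and 4.70 to 6.49, 14.3 and 16.3 TPM (1.64 ± 0.29, adjusted p = 0.00368). In these 3 genes replicate 1 of 3 Day was the lowest of its group, yet above every AA library. LAMA1, the alpha chain of the laminin of early embryos, rose from 20.9, 24.3 and 24.7 to 32.0, 41.9 and 43.9 TPM (0.85 ± 0.13, adjusted p = 0.00121), and FBLN5 from 12.7, 11.2 and 14.05 to 15.8, 24.7 and 24.4 TPM (0.87 ± 0.17, adjusted p = 0.00771). Other members called were LAMA4, LAMB2, LAMC1, HSPG2, FBN1, FBN2, FBLN2, TNC and SPARC, with log2 fold changes from 0.43 (FBLN2) to 0.83 (HSPG2 and SPARC). The calls for EFEMP1, SPP1, FN1, LAMB3, LAMA1, LAMC1 and TNC held in all 12 alternatives, and the count was 8 without 3 Day replicate 2 or without AA replicate 1.

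By role, the laminins had 5 of 10 higher at 3 Day (LAMA1, LAMA4, LAMB2, LAMB3 and LAMC1, median 0.58), the elastic fibre group 6 of 10 (median 0.51) and the matricellular proteins 3 of 5 (median 0.80). None of 3 small leucine-rich proteoglycans tested and none of 4 neural matrix genes tested was called, with medians of 0.05 and −0.08. In the partner lists, of 15 integrin subunits tested, 6 were higher, among them ITGA5 at 0.88, ITGA3 at 0.89 and ITGA11 at 2.19 on the log2 scale, and ITGA2 was lower at −0.47. Of 8 crosslinkers and elastic fibre partners, 4 were higher (LOX 0.86, LOXL1 1.16, LOXL2 1.40 and LTBP2 1.60). Of 6 basement membrane collagen genes 4 were higher (COL4A1 0.95, COL4A2 0.59, COL18A1 0.71 and COL4A6 0.43), and of 12 other matrix receptors 3 were higher (CD44 1.30, SDC2 0.69 and DDR1 0.38). None of 5 hyaluronan synthases and link proteins tested was called at 3 Day, where 7.37% of all genes passed in either direction.

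Markers of other cells moved in the time course. At 3 Day the endothelial and mural sum was 185 to 373 TPM against 111 to 132 in AA, with RGS5, KDR, TEK, ACTA2 and NOTCH3 the 5 of 6 tested that were higher, while the endothelial-defining PECAM1 and CDH5 stayed at or under 0.3 TPM. The fibroblast and mesenchyme sum was 312 to 513 TPM against 219 to 280, with 6 of 9 tested higher, and TCF21, a fibroblast marker, was under 0.1 TPM in every library of both groups. Of 7 astrocyte markers GFAP (0.92 on the log2 scale), S100B (0.80) and GJA1 (0.56) were higher. The choroid plexus sum was 482 to 1054 TPM against 1486 to 2331. At the other days COL1A2 (0.58, 0.76 and 0.66 at 2, 4 and 5 Day) and COL3A1 (0.62, 0.80 and 0.73) were the 2 of 9 fibroblast and mesenchyme markers called, both higher, and S100B was higher at 2 Day (0.63) and 4 Day (0.61). Their part in the members' changes was not tested.

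**Figure D5:**
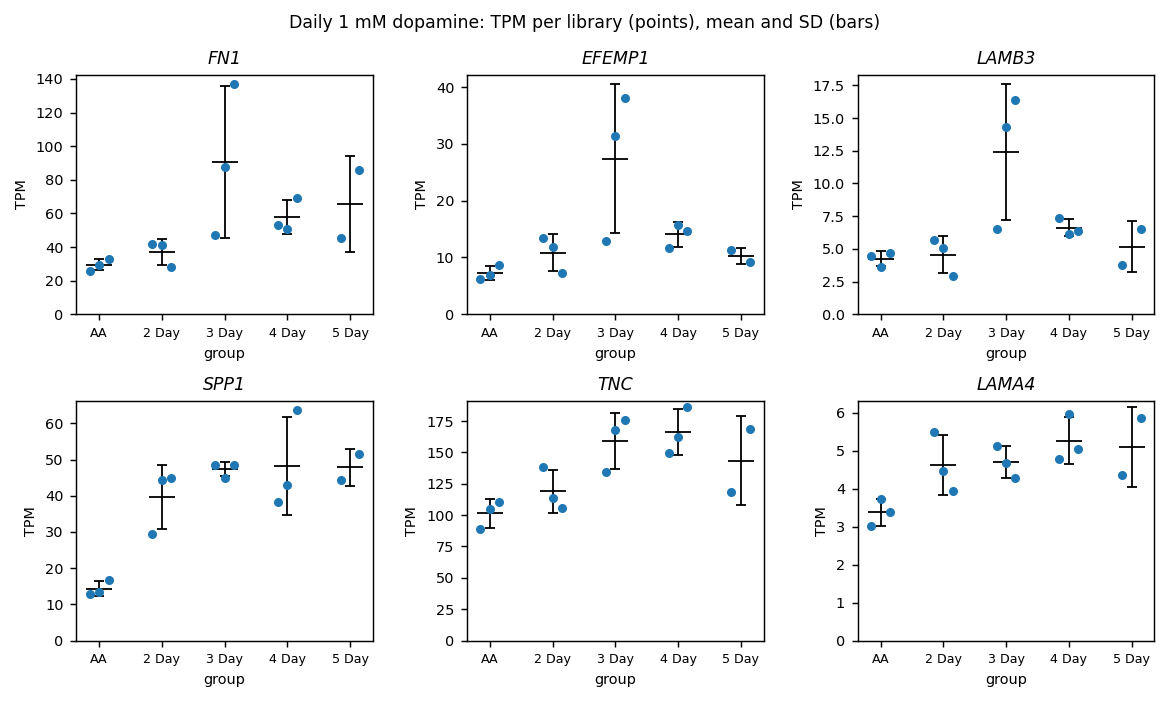
TPM of FN1, EFEMP1, LAMB3, SPP1, TNC and LAMA4 in each library (points) with group means (bars) for AA and 2 to 5 Day of the 1 mM time course. FN1, EFEMP1 and LAMB3 are highest at 3 Day (137, 38.11 and 16.3 TPM in the highest library), while every treated library of SPP1 (29.3 to 63.6 TPM) is above AA.

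At 4 Day, 6 of 36 members were higher and 0 lower, where 4.38% of all genes passed (2.58% higher and 1.8% lower), with a median of 0.44. Besides SPP1 and LAMA4, tenascin-C had 149.9, 162 and 186 TPM against 88.6, 105 and 111 in AA (0.74 ± 0.13, adjusted p = 0.00514). Fibulin-2, an elastic fibre glycoprotein, had 45.9, 47.7 and 49.6 TPM (0.64 ± 0.12, adjusted p = 0.00808). Periostin had 10.4, 10.5 and 10.8 against 6.68, 7.53 and 8.42 TPM (0.51 ± 0.14, adjusted p = 0.0482). LAMC1, the gamma chain of most laminins, had 110.1, 112 and 122 against 81.6, 87.5 and 87.4 TPM (0.45 ± 0.11, adjusted p = 0.03). All were above every AA library, and the count was 3 without 4 Day replicate 2 or AA replicate 1, with the POSTN and LAMC1 calls lost in 8 and 7 of 12 alternatives. At 5 Day, with 2 libraries, 4 members were higher and 0 lower, where 1.63% of all genes passed (1.23% higher and 0.406% lower), with a median of 0.34. Periostin had 11.01 and 12.3 TPM (0.75 ± 0.15, adjusted p = 0.021) and tenascin-C 119 and 168 TPM (0.61 ± 0.14, adjusted p = 0.0409), again with no overlap, though the tenascin-C call was lost in 8 of 11 alternatives. Fibronectin had 45.6 and 85.6 TPM, above AA, with a change on the log2 scale of 1.24 ± 0.31 (SE, adjusted p = 0.0556). The 5 Day count was 1 without 5 Day replicate 2, AA replicate 1 or AA replicate 2, and 2 without AA replicate 3.

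Between 5 Day and 3 Day, 1 of 36 members was called, where 1.16% of all genes passed (0.537% higher and 0.626% lower). Periostin was higher at 5 Day, at 11.01 and 12.3 against 6.87, 6.66 and 8.70 TPM (0.69 ± 0.15, adjusted p = 0.044). The genes highest at 3 Day did not pass this direct test. EFEMP1 had a difference of −1.38 ± 0.38 (SE, adjusted p = 0.0782), LAMB3 of −1.25 ± 0.33 (SE, adjusted p = 0.0717) and FN1 of −0.48 ± 0.31 (SE, adjusted p = 0.455), and the FN1 values at 5 Day lay within the 3 Day range or just under it. This count rested on single libraries, being 7 (1 higher and 6 lower) without 3 Day replicate 1, where 4.11% of all genes passed, 2 without 5 Day replicate 3, and 0 without 3 Day replicate 2 or 3 or 5 Day replicate 2.

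No member was called with either receptor agonist in a fit of all libraries of the experiment, quinpirole replicate 1 included. In that fit the SKF82958 comparison had an SE of 1.06 for SPARC and 1.04 for NCAN on the log2 scale. At 3 Day the SEs of these genes were 0.17 and 0.07. SKF82958 changes smaller than such SEs could not be called, so no lack of response can be read from this fit. With SKF82958, 0 of 37 members tested passed edgeR's quasi-likelihood test, where 0.0124% of all 16132 genes did, and 1 member, EFEMP1, had an unadjusted p under 0.05 against 1.15% of all genes. EFEMP1 had 12.1, 18.1 and 8.95 TPM against 5.32, 7.43 and 7.396 in Water, without overlap (0.89 ± 0.34, adjusted p = 1). Fibronectin had 36.4, 37.7 and 29.0 TPM with SKF82958 against 25.0, 23.0 and 23.1 in Water, also without overlap (0.46 ± 0.45, adjusted p = 1). Other members, among them LAMB1, TNC and SPARC, were also higher with SKF82958 without overlap. In all, 30 of 37 members tested had a positive log2 fold change, with a median of 0.17 against −0.003 for all genes. With quinpirole, 0 of 37 members and 0% of genes passed, no member had an unadjusted p under 0.05 against 2.17% of all genes, and DESeq2 called 0 members for either agonist. Quinpirole replicate 1, in the fit, listed SPP1 at 0 against 57.9 and 54.1 TPM in the other 2 libraries. Leaving it out of the quinpirole comparison also gave 0 members. Fitting only the SKF82958 and Water libraries gave 2, so the SKF82958 count depended on which libraries were fitted. SKF82958 and quinpirole are agonists of different receptor classes and were not tested against each other here.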

How the data were processed

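RNA sequencing was deposited as 1 table per library, made by the authors with CLC Genomics Workbench on the human genome hg38 with Ensembl genes. Each deposited table gives read counts per gene (exon, intron and all gene reads) and TPM, which the authors scaled by exon length. Whether counting used strand was not given in the sources used here. The test on exon read counts was that of edgeR 4.0.16 (R 4.3.3) (filterByExpr with a minimum count of 10 and a minimum total of 15, TMM, glmQLFit and glmQLFTest), with all groups of an experiment in 1 fit, Benjamini-Hochberg adjustment over all genes tested and a threshold of 0.05, and the SE of a log2 fold change from the quasi-likelihood F statistic. Intervals of TPM are SD or ranges over libraries. Exon reads per library ranged from 137051 to 27702963. Alternatives were DESeq2 1.42.0, its size factors, all gene reads, no count filter, a replicate block, only the groups compared, a stricter rule (the study's for the 1 mM and 1 µM experiments, also a log2 fold change of at least 1 in size and a group mean of at least 1 TPM), and leaving out libraries. The code was tested on simulated data with known changes. Members and lists were chosen with earlier results of these data known. Any member could be named. Values in every library are given for up to 6 called members per comparison with the largest fold change, a group mean of at least 1 TPM and no overlap, and for the 2 most abundant members of each role. Statements of no overlap for these called members follow from that choice and are no added support. For 5 Day replicate 1 no table was analysed here.

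Replicate numbers were checked for pairing. Deviations from group means of same-numbered libraries had mean correlations of 0.002, 0.0229, −0.0103 and −0.0248 in the 4 experiments (1 mM, 1 µM, time course, agonists), and single pairs in the 1 µM experiment ran from −0.301 to 0.446, so the numbers were not treated as pairs.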

Additional observations from a re-analysis of the deposited data

Results flagged for a closer look

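The change 1 h after a single dose differed between 1 mM and 1 µM for 5 members, as tested by the interaction term over 30 libraries. The difference (1 mM change minus 1 µM change, log2 scale) was 2.49 for POSTN, 2.29 for FBLN5, 1.46 for NID2, 1.13 for FBN2 and 1.07 for FBN1. POSTN changed by 0.11 at 1 mM and by −2.36 at 1 µM. FBLN5 changed by 0.60 at 1 mM and by −1.65 at 1 µM, and is the 1 of the 5 that was called at both doses, although its 1 mM call was lost without any 1 of the 6 libraries (adjusted p of 0.0613 to 0.0921). NID2 changed by 0.01 and −1.42, FBN2 by 0.91 and −0.19, and FBN1 by 0.51 and −0.54 in the same order. The 2 doses were separate experiments with their own PBS cultures. The difference for POSTN was lost without PBS replicate 1 or without PBS replicate 2 of the 1 mM experiment, and that for FBN1 in 4 of 19 alternatives.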

How the results depend on the processing

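The results below are counts of members called, and they depended on settings more than single members did. Of 249 recomputed counts 145 stayed within 1.5 times the reported one and 104 did not, while of 1116 recomputed member results 855 kept their call, 261 lost it and 0 changed direction. DESeq2 size factors kept every count within 1.5 times. With all gene reads the counts were 21 (1 mM Acute 1 h), 17 (Acute 24 h), 1 (Chronic 1 h), 0 (Chronic 24 h) and 21 (Chronic 1 h against Acute 1 h) at 1 mM, 4, 2 and 0 (Acute 1 h, Acute 24 h and Chronic 1 h) at 1 µM, 0 for 5 Day against 3 Day and 18 for the interaction. With only the groups compared they were 22, 0, 13, 3 and 23 in the same order at 1 mM, 0, 2 and 0 at 1 µM, 0 for 1 µM Chronic 1 h against Acute 1 h, 21 at 4 Day, 2 at 5 Day, 0 for 5 Day against 3 Day and 2 for SKF82958. With no count filter they were 1 at 1 mM Chronic 1 h, 0 at 1 µM Chronic 1 h, 11, 20 and 13 at 2, 4 and 5 Day and 15 for 5 Day against 3 Day. DESeq2 gave 4 at 1 mM Chronic 24 h, 5 for 1 µM Chronic 1 h against Acute 1 h, 4 for 5 Day against 3 Day and 8 for the interaction. Without 1 mM Acute 24 h replicate 1 the counts were 11 (Chronic 1 h), 10 (Chronic 24 h), 17 (Chronic 1 h against Acute 1 h) and 9 (interaction). Without the 4 libraries of low GC-rich genes, chosen after the data were seen, they were 11, 11 and 3 at 1 µM Acute 1 h, Acute 24 h and Chronic 1 h and 6 for Chronic 1 h against Acute 1 h. The stricter rule, which the study did not use for the time course, left 4, 3, 0, 0 and 2 at 1 mM in the order above, 0 at 1 µM Chronic 1 h, 1, 4, 1 and 1 at 2 to 5 Day and 0 for 5 Day against 3 Day. Shares of all genes called rose too in the settings that gave most members, to 47.2% and 45.5% at 1 mM Acute 1 h (all gene reads, only the groups compared), 25.4% at Chronic 1 h and 13.5% at 4 Day (only the groups compared). With no count filter 4 Day had 4.96%. The cause of these shifts was not tested.

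Leaving out 1 library gave 5 to 6, 4 to 13, 0 to 3, 0 to 1 and 8 to 9 members at 1 mM in that order, 6 to 7, 1 to 5, 0 to 0 and 0 to 3 at 1 µM (Acute 1 h, Acute 24 h, Chronic 1 h, Chronic 1 h against Acute 1 h), 1 to 4, 8 to 16, 3 to 5 and 1 to 4 at 2 to 5 Day, 0 to 7 for 5 Day against 3 Day and 3 to 6 for the interaction, and 0 throughout for 1 µM Chronic 24 h and both agonists. Where it left 5 Day with 1 library, that library was assumed to vary like the other groups.

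The labels number the replicates, but same-numbered libraries did not deviate together on average, and 4 of 15, 8 of 15, 4 of 14 and 1 of 9 libraries correlated best with their own number. In the 1 µM experiment 3 of the 4 libraries of low GC-rich genes were replicate 2. A replicate block gave 6 at 1 mM Acute 24 h, 1 at Chronic 1 h and 0 for 5 Day against 3 Day, 11 at 1 mM Acute 1 h, and moved no other count by over 1.5 times. Depth limits members with few reads, such as POSTN at 1 µM and EFEMP2 at 1 mM, and quinpirole replicate 1.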

Other observations

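Some members had like patterns of TPM over the 18 group means (quinpirole taken without replicate 1). These are descriptions over groups that share experiments and depth, with no test. Over each member's closest partner the highest values were LAMA4 with TNC (Pearson r of 0.966), LAMB2 with LAMB3 (0.958), LUM with MGP (0.956), FBN2 with SPARC (0.951) and DCN with LAMA4 (0.945). With each experiment's own mean removed, high values included HSPG2 with FBN1 (0.892) and with ELN (0.879), LAMB1 with NID2 (0.849), SPARC with FBN2 and with FBN1 (both 0.848) and LAMC1 with LAMB3 (0.846).

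Quinpirole replicate 1, with 137051 exon reads, listed MGP at 123 TPM and ASPN at 91.3 TPM, against at most 5.75 and 2.87 TPM in the other 52 libraries. Behind these values stood 11 and 7 exon reads.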
